A study of Danio rerio with 16 samples.

Results

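The genotype by injury interaction measures, for each gene, how far the response of tail muscle to a needle wound differed between ankrd1a mutant and wild-type adult zebrafish. It is the injured minus non-injured difference in mutants, minus the same difference in wild type, on a log2 scale. A positive value means that injury moved the gene further up, or less far down, in mutants. All 16 libraries of the series enter it, 4 in each of 4 groups, and each library held skeletal muscle RNA of 1 fish. The injured mutants carried the ankrd1a allele bns502 (labelled ankrd1a-/-, made by CRISPR/Cas9 editing) and were sampled after 5 days of recovery from a needle wound in the dorsal tail muscle. The non-injured mutants carried the same allele and gave the matching tail region. The injured wild types, of the strain AB (Oregon), had the same wound and recovery, and the non-injured wild types of that strain gave the matching region. The labels call the fish adult and give no age, sex or relation between the fish. The position and effect of the lesion within ankrd1a are not given either. With nothing said of tanks or clutches, p-values measure the spread between these fish only.

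Ankrd1 proteins are ankyrin repeat proteins that bind titin in the sarcomere and also enter the nucleus, and their transcripts are known in mammals to be among the most strongly induced by muscle stretch and damage. A wounded fish muscle clears dead fibres with the help of macrophages, lays down matrix, activates satellite cells and builds new fibres that first express embryonic forms of the contractile proteins. An interaction asks whether any of these programmes, or the response of single genes, depends on the genotype. It can come from a genotype gap among injured fish, from a gap among non-injured fish, or from both, so these gaps are given where a result turns on them.

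Total estimated counts were 17324482 to 17994069 per library in injured mutants, 17523688 to 19811573 in non-injured mutants, 22006028 to 24189272 in injured wild types and 18011139 to 25231102 in non-injured wild types. After a filter on low counts 16514 of 32520 genes were tested. The median standard error (SE) of an interaction was 0.35 on the log2 scale, and the biological coefficient of variation between fish of a group was 31.3%. The tissue label was met by the data: fast fibre contractile genes averaged 7.95 to 10.24 log2 CPM (CPM being a gene's count relative to the TMM-scaled total of its library) over the libraries and slow fibre genes 4.56 to 5.83. Some libraries stood apart. Epidermis markers averaged 0.24 to 4.66 log2 CPM over the 16 libraries, and all 4 groups overlapped. The scaling factors of non-injured wild types 2 and 3 were the lowest of all (0.678 and 0.768). Non-injured wild type 3 had macrophage markers at 3.29 log2 CPM, against 1.45 to 2.34 in the other 3 fish of its group. In such bulk tissue, fewer cells of a type and less RNA per cell cannot be told apart.

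ANKRD1 itself is the gene edited in the mutants, but 2 gene IDs carry this symbol and the files do not say which is ankrd1a. ENSDARG00000075263 had 147, 141, 90 and 148 CPM in injured mutants and 1.19, 1.44, 1.16 and 1.09 CPM in non-injured mutants. It had 148, 151, 186 and 180 CPM in injured wild types and 4.27, 1.77, 2.99 and 5.08 CPM in non-injured wild types. The injured groups overlapped, whereas every non-injured mutant lay below every non-injured wild type. Its interaction was 1.2 (SE 0.36, adjusted p = 0.419) and was not called. The second ID, ENSDARG00000076192, reached 0.84 to 1.73 CPM in injured mutants and 0.399 to 1.65 CPM in injured wild types, and 0 to 0.128 CPM without injury in either genotype. Its interaction of 0.68 (SE 1.44, adjusted p = 0.963) turned to -0.25 when non-injured wild type 3 was left out. The related gene ANKRD2 had 0 to 4 counts per library and was not tested. Because the lesion is not described, these levels check nothing about the genotype labels.

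Injury changed many genes in each genotype, and for very few of them did the size of the change pass a test of difference between genotypes. In mutants 4496 genes were called for injury (27.2% of those tested), 2306 higher (14%) and 2190 lower (13.3%). In wild type 3927 were called (23.8%), 1956 higher (11.8%) and 1971 lower (11.9%). Both genotypes called 2657 genes, 59% of the calls in mutants and 67.7% of those in wild type, and 2650 of these moved in the same direction. The interaction itself was called for 10 genes at an adjusted p below 0.05 (0.0606% of those tested), 3 with a positive and 7 with a negative value. At an unadjusted p below 0.05, 655 genes had a positive (3.97%) and 552 a negative interaction (3.34%), whereas 15 genes in all had an adjusted p below 0.1. The median interaction over all genes was 0.01, and its 5th and 95th percentiles were -0.96 and 1.15. A call in 1 genotype and not in the other, which held for 1839 genes in mutants and 1270 in wild type, is not by itself a tested difference between them.

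**Figure D1:**
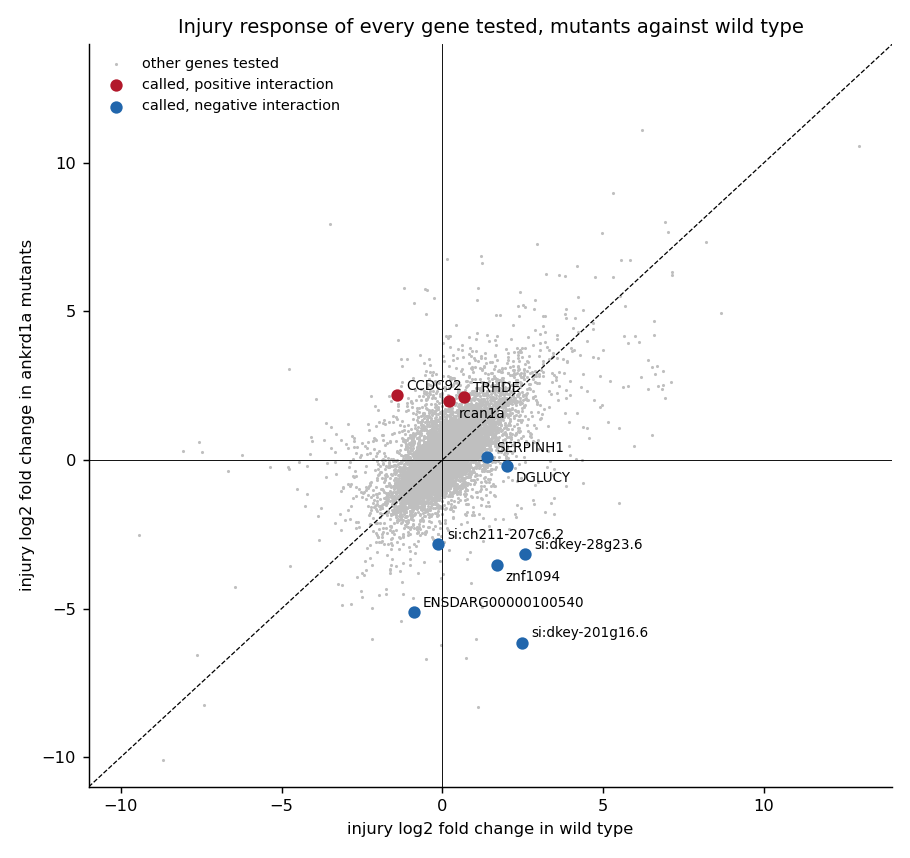
Injury log2 fold change of each of the 16514 genes tested, in mutants (vertical axis) and in wild type (horizontal axis). The dashed line marks equal responses, and a gene's vertical distance from it is its interaction. The 3 genes called with a positive interaction are red, the 7 called with a negative one are blue, and most genes lie along the line.

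CCDC92, TRHDE and rcan1a were the genes with a called positive interaction. CCDC92 (ENSDARG00000041750), a coiled-coil protein located at centrioles in human cells, had 13.3, 13.6, 6.77 and 12.8 CPM in injured mutants and 1.94, 2.14, 3.75 and 2.43 CPM in non-injured mutants. It had 1.16, 1, 1.47 and 0.972 CPM in injured wild types and 3.38, 4.63, 2.17 and 2.13 CPM in non-injured wild types. Every injured mutant lay above every other fish, and every injured wild type lay below every other fish. Injury raised CCDC92 in mutants by 2.18 (SE 0.29, adjusted p = 0.000109) and lowered it in wild type by a log2 of -1.41 (SE 0.31, adjusted p = 0.00407). The interaction was 3.59 (SE 0.42, adjusted p = 0.00249). The genotype gap was 3.33 among injured fish (adjusted p = 6.88e-05) and -0.25 among non-injured fish (adjusted p = 0.666).

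The gene rcan1a (ENSDARG00000003109) encodes a regulator of the phosphatase calcineurin, and its mammalian counterpart is a known transcriptional target of calcineurin and NFAT. It had 76.4, 58.5, 42.9 and 60.9 CPM in injured mutants and 15.2, 16, 16.1 and 13.8 CPM in non-injured mutants. It had 27.7, 23.3, 26.4 and 15.9 CPM in injured wild types and 19.3, 19.3, 20.7 and 21 CPM in non-injured wild types. Injured mutants were above all others, and the injured and non-injured wild types overlapped. It rose with injury in mutants by 1.97 (SE 0.18, adjusted p = 3.37e-06), while in wild type the change was 0.22 (SE 0.17, adjusted p = 0.397). The interaction was 1.75 (SE 0.25, adjusted p = 0.00986). The gap between genotypes was 1.36 among injured fish (adjusted p = 0.000978) and -0.40 among non-injured fish (adjusted p = 0.222), although without injury every mutant lay below every wild type.

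TRHDE (ENSDARG00000109358), a membrane peptidase that degrades thyrotropin-releasing hormone, followed another pattern. Its level was 14.1, 12.2, 12.9 and 10.9 CPM in injured mutants, 2.69, 2.56, 2.85 and 3.58 CPM in non-injured mutants, 12.3, 11.2, 12.1 and 9.51 CPM in injured wild types and 6.76, 6.34, 7.49 and 7.58 CPM in non-injured wild types. The injured groups overlapped, and every non-injured mutant lay below every non-injured wild type. Injury raised TRHDE in both genotypes, by 2.1 in mutants (SE 0.14) and by 0.68 in wild type (SE 0.13, adjusted p = 0.00202). The interaction of 1.42 (SE 0.19, adjusted p = 0.00742) stood beside a gap of -1.27 without injury (adjusted p = 0.000144) and of 0.15 after it (adjusted p = 0.642). The estimated counts of TRHDE were whole numbers in 1 of 16 libraries, which means that in the others reads were divided between it and another gene. All 3 genes stayed called when any 1 library was left out, with adjusted p up to 0.013 for CCDC92, 0.032 for TRHDE and 0.039 for rcan1a. TRHDE and rcan1a had an adjusted p of 0.12 each when library size was the only scaling.

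DGLUCY (ENSDARG00000005179), the mitochondrial D-glutamate cyclase, had the smallest p of the negative interactions. It had 5.18, 4.38, 3.56 and 3.72 CPM in injured mutants and 5.39, 4.38, 4.23 and 5.31 CPM in non-injured mutants. It had 17.2, 16.5, 19 and 12.3 CPM in injured wild types and 3.09, 4.39, 3.98 and 4.76 CPM in non-injured wild types. The injured wild types lay above every other fish, and the other 3 groups overlapped. In mutants the change with injury was -0.20 (SE 0.17, adjusted p = 0.437), and in wild type DGLUCY rose by 2.0 (SE 0.18, adjusted p = 2.94e-06). The interaction was -2.20 (SE 0.25, adjusted p = 0.00249), with a gap of -1.95 among injured fish (adjusted p = 6.27e-05) and 0.25 among non-injured fish (adjusted p = 0.453). It was called with any 1 library left out, at adjusted p up to 0.012.

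SERPINH1 encodes Hsp47, the endoplasmic reticulum chaperone that folds procollagen, and 2 gene IDs carry the symbol. The called one, ENSDARG00000019949, had 54.6, 49.7, 59 and 43 CPM in injured mutants and 43.2, 52.2, 46.1 and 52.4 CPM in non-injured mutants. It had 63, 83.1, 64.9 and 65.8 CPM in injured wild types and 27.4, 34.4, 21.1 and 22.2 CPM in non-injured wild types. Mutant fish overlapped between the injury states, all non-injured mutants lay above all non-injured wild types, and all injured mutants lay below all injured wild types. The change with injury was 0.09 in mutants (SE 0.16, adjusted p = 0.707), and in wild type it rose by 1.40 (SE 0.16, adjusted p = 3.94e-05). The interaction was -1.31 (SE 0.23) at an adjusted p of 0.0499, just inside the threshold, with a gap of -0.42 among injured fish (adjusted p = 0.215) and 0.88 among non-injured fish (adjusted p = 0.01). That call was lost when any 1 of 14 of the 16 libraries was left out, with adjusted p up to 0.16. The second SERPINH1 gene, ENSDARG00000075954, rose with injury in both genotypes, by 0.51 in mutants (adjusted p = 0.0292) and by 1.36 in wild type (adjusted p = 6.11e-05). Its interaction of -0.84 (SE 0.23, adjusted p = 0.353) was not called, and its gap without injury was 0.75 (adjusted p = 0.0259).

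The other 5 called genes, all with negative interactions, were scarce or had no usable symbol. They fell outside the rule for called genes named by symbol and level, and are described after their values were seen. Of them, si:dkey-28g23.6 came under the rule for genes called for injury in opposite directions. The locus si:dkey-28g23.6 (ENSDARG00000090708) had 0, 0, 0.148 and 0.151 CPM in injured mutants, 0.916, 1.07, 0.423 and 0.384 CPM in non-injured mutants, 2.91, 2.73, 1.8 and 2.79 CPM in injured wild types and 0.415, 0.549, 0.465 and 0.272 CPM in non-injured wild types. It fell with injury in mutants (-3.17, SE 0.64, adjusted p = 0.00224) and rose in wild type (2.58, SE 0.50, adjusted p = 0.00218), for an interaction of -5.75 (SE 0.81, adjusted p = 0.00986) that kept its call with any 1 library left out. The long-named locus si:ch211-207c6.2 (ENSDARG00000095304) fell in mutants, with 0.187, 0.184, 0.247 and 0.251 CPM when injured and 1.62, 1.76, 1.95 and 1.02 CPM when not. In wild type its injured fish, at 0.717 to 1.14 CPM, overlapped the non-injured fish at 0.732 to 1.42 CPM, and the interaction was -2.71 (SE 0.43, adjusted p = 0.0301).

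Non-injured mutants alone stood out for a pair of the scarce genes. The zinc finger gene znf1094 (ENSDARG00000102370) had 0 to 0.395 CPM in injured mutants, 3.02, 3.05, 2.91 and 2.56 CPM in non-injured mutants, 0.145 to 0.284 CPM in injured wild types and 0.0454 to 0.122 CPM in non-injured wild types. Its interaction was -5.23 (SE 0.83, adjusted p = 0.0301), with every group but the non-injured mutants at 0.395 CPM or less. The locus si:dkey-201g16.6 (ENSDARG00000103538) had 0 to 0.1 CPM in injured mutants, 1.99, 2.67, 3.01 and 4.29 CPM in non-injured mutants, 0 to 0.284 CPM in injured wild types and 0 to 0.0516 CPM in non-injured wild types (1 count in 1 of 4 libraries). Its fitted interaction of -8.64 (SE 1.42, adjusted p = 0.0363) rests on near-empty groups, since all but the non-injured mutants had 0.284 CPM or less. ENSDARG00000100540, which has no symbol, had 0.187, 0.599, 0 and 0.703 CPM in injured mutants, 11, 7.64, 8.93 and 25.3 CPM in non-injured mutants, 10.3, 11.3, 14.9 and 11.3 CPM in injured wild types and 24.1, 18.6, 17.6 and 28.7 CPM in non-injured wild types. Injured mutants lay below all other fish, with an interaction of -4.23 (SE 0.69, adjusted p = 0.0363). The calls of si:ch211-207c6.2, znf1094, si:dkey-201g16.6 and ENSDARG00000100540 each were lost without any of 10 to 14 of the 16 libraries, at adjusted p up to 0.16. Except for si:ch211-207c6.2, these 5 genes had whole estimated counts in at most 7 libraries, so their reads were partly shared with other genes.

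**Figure D2:**
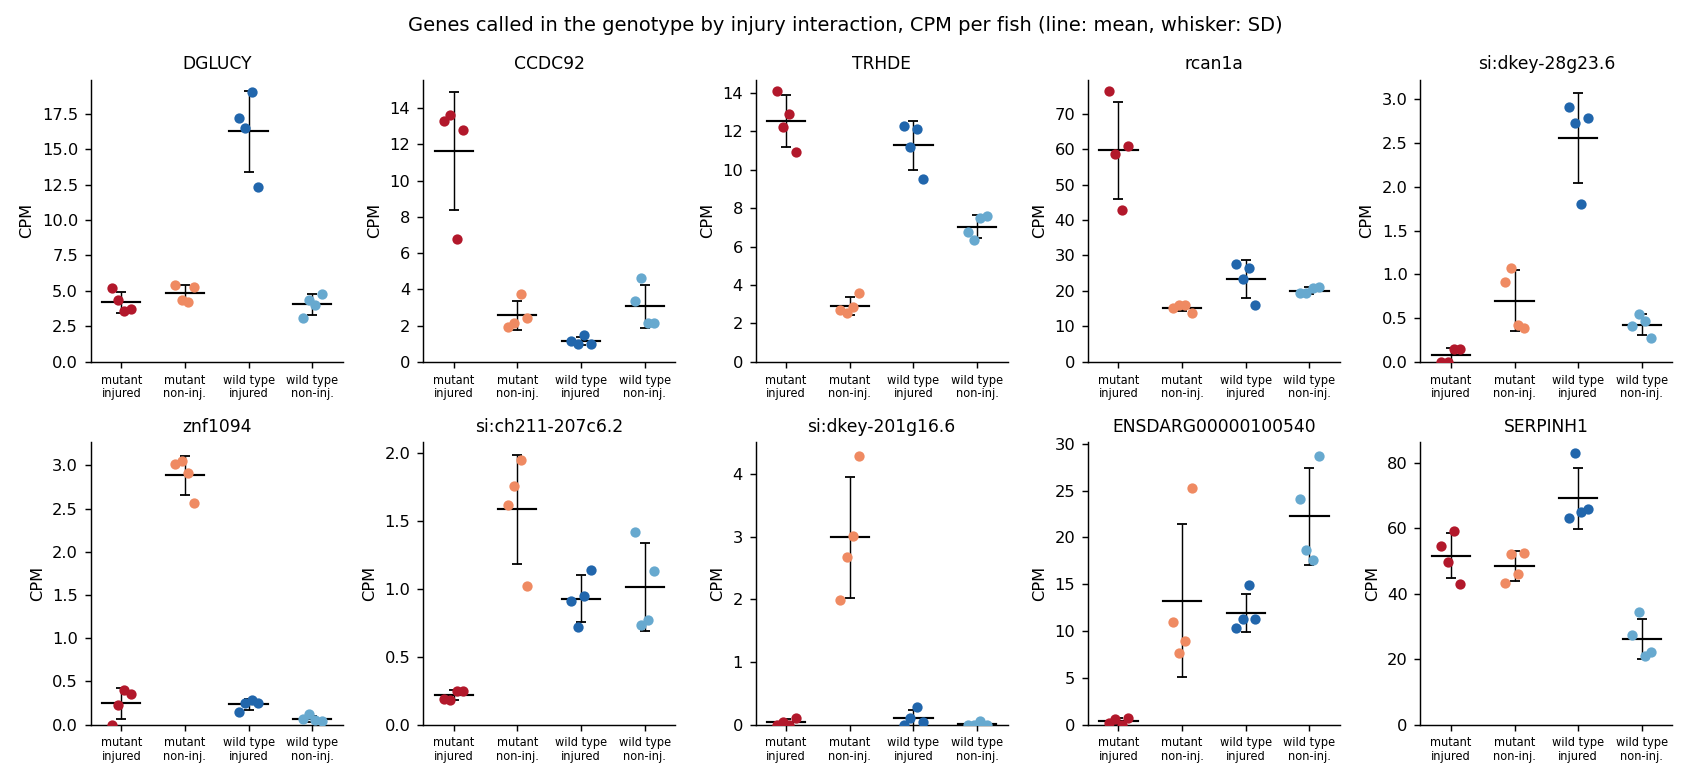
Levels in CPM of the 10 genes called in the interaction, 1 point per fish, with injured and non-injured mutants left of injured and non-injured wild types in each panel. Lines are means and whiskers 1 SD of 4 fish. In CCDC92 and rcan1a the injured mutants stand highest, in DGLUCY the injured wild types do, and in znf1094 and si:dkey-201g16.6 the non-injured mutants do.

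Of all genes, 7 were called for injury in both genotypes with opposite directions. CCDC92 and si:dkey-28g23.6 were the only ones of them whose interaction was also called in the fit reported. The alternative fit with DESeq2 called the interactions of the others too, and the one with limma-voom did not. LRRC4 (ENSDARG00000003020), a leucine-rich repeat adhesion protein of synapses, was at 0.247 to 0.507 CPM in injured mutants and 0.916 to 1.92 CPM in non-injured mutants, and at 0.142 to 0.254 CPM in injured wild types and 0 to 0.0907 CPM in non-injured wild types. Its interaction was -4.23 (SE 0.79, adjusted p = 0.0881). The Golgi protein gene SCOC (ENSDARG00000002217) rose with injury in mutants by 0.50 and fell in wild type (-0.49), with an interaction of 0.99 (SE 0.22, adjusted p = 0.191). EFNB2 (ENSDARG00000020164), the ligand ephrin-B2, fell in mutants (-0.34) and rose in wild type by 0.40, with an interaction of -0.74 (SE 0.17, adjusted p = 0.231). The remaining pair were clone-named loci. One, si:dkeyp-80d11.12, had an interaction of -3.82 (SE 0.85, adjusted p = 0.191). In the other, si:ch211-69i3.2, 3 of 4 injured mutants had 1.73 to 2.41 CPM and 1 had 0, all 4 non-injured mutants had 0 CPM, and wild types had 0 to 0.189 CPM when injured and 0.155 to 1.16 CPM when not (adjusted p = 0.109).

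Better-expressed genes of smallest p were named to fill up the positive direction and were not called in the fit reported. Their adjusted p ran from 0.0881 upward. The alternative fit with DESeq2 called klf2a, ADAMTS15, fbxo44.9, col4a6, csrnp1a and PIM1. The flow-responsive transcription factor klf2a had 29.1, 28.2, 23.2 and 24.9 CPM in injured mutants and 19.8, 24.5, 23.8 and 23.3 CPM in non-injured mutants, against 27.2, 22.1, 22.7 and 21.1 CPM in injured wild types and 33.3, 53.1, 49.4 and 38.5 CPM in non-injured wild types. The non-injured wild types lay above all other fish, and the interaction was 1.11 (SE 0.21, adjusted p = 0.0881). ADAMTS15, a secreted metalloprotease that cleaves versican, averaged 28.4 ± 11.2 CPM in injured mutants and 3.17 ± 0.659 CPM in non-injured mutants, and 16.8 ± 4.05 CPM in injured wild types and 6.85 ± 0.306 CPM in non-injured wild types (SD, n = 4 each). Its interaction was 1.87 (SE 0.35, adjusted p = 0.093). The F-box gene fbxo44.9 had 3.78, 0.461, 6.96 and 5.47 CPM in injured mutants, 0.162 to 0.374 CPM in non-injured mutants, and 6.08 to 9.98 CPM in all 8 wild types, with an interaction of 3.93 (SE 0.76, adjusted p = 0.102).

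The basement membrane collagen gene col4a6 had an interaction of 1.98 (SE 0.39, adjusted p = 0.115). For csrnp1a, a nuclear protein gene, it was 1.78 (SE 0.36, adjusted p = 0.13), and for the kinase gene PIM1 (ENSDARG00000100020) 1.34 (SE 0.28, adjusted p = 0.17). With injury col4a6 rose by 1.49 in mutants, csrnp1a by 2.04 and PIM1 by 1.14, and the wild-type changes, -0.48 for col4a6, 0.26 for csrnp1a and -0.20 for PIM1, were not called. In each of them every non-injured mutant lay below every non-injured wild type. These genes were picked by the p of an interaction that contains this gap. The share of all genes separated in this way was not counted.

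On the negative side, genes with a usable symbol and a mean log2 CPM of at least 1 had adjusted p from 0.17 upward once the called ones were set aside. The cartilage matrix gene ucmaa had 12.2, 10, 7.9 and 10.5 CPM in injured mutants, below all other fish, and 12.6 to 20.7 CPM in the other 3 groups, with an interaction of -1.05 (SE 0.22, adjusted p = 0.17). The gene cox6b1, a subunit of cytochrome c oxidase, had an interaction of -2.51 (SE 0.55, adjusted p = 0.191), with 6.39 to 28.9 CPM in mutants of both states, 6.21 to 13.8 CPM in injured wild types and 2.13 to 3.87 CPM in non-injured wild types. The chromatin protein gene hmga1b had an interaction of -2.04 (SE 0.47, adjusted p = 0.216), and it fell with injury in mutants (-2.34, adjusted p = 0.000244). GFER, a sulfhydryl oxidase of the mitochondrial intermembrane space, was at 1.82 to 3.16 CPM in injured mutants and 4.9 to 7.04 CPM in injured wild types, with an interaction of -1.52 (SE 0.38, adjusted p = 0.309). SNX24 (-1.07), USP37 (-1.03) and C9H2orf49 (-0.77) had adjusted p of 0.249 to 0.254, and in all 3 the non-injured mutants lay above the non-injured wild types. They too were picked by the p of an interaction that contains this gap.

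Across the table, the larger genotype gap lay more often among non-injured than among injured fish. The gap between genotypes was called for 467 genes without injury (2.83% of those tested) and for 244 genes after injury (1.48%). Of the 655 genes with a positive interaction at an unadjusted p below 0.05, 409 (62.4%) had the larger gap in non-injured fish, and of the 552 with a negative one 309 (56%) did, against 56.3% of all genes tested. Of these 1207 genes together, 640 (53%) had responses of opposite sign, 366 (30.3%) had the same sign and a larger response in mutants, and 201 (16.7%) had the same sign and a smaller response in mutants. Over all genes tested the shares were 22.4%, 41.5% and 36.1%. Among the 10 called genes 5 had opposite signs, 4 a larger and 1 a smaller response in mutants. These shares describe genes picked by their interaction and support nothing beyond that.

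**Figure D3:**
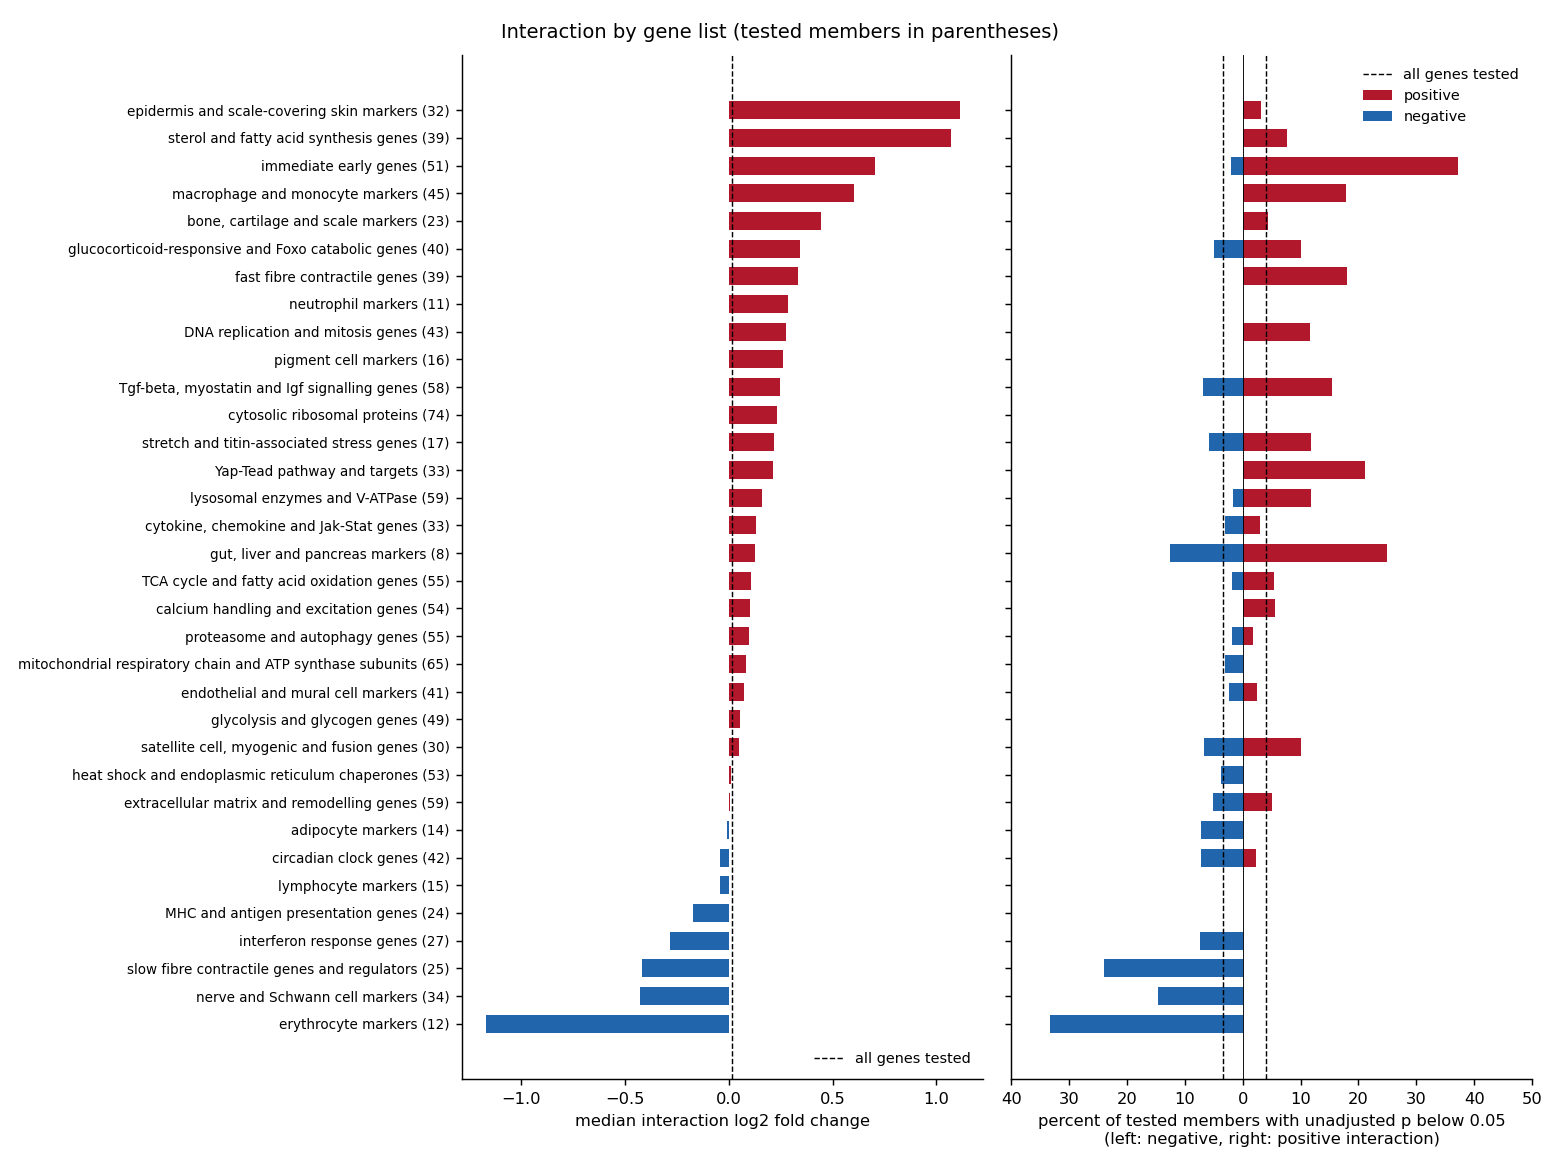
Interaction in 34 gene lists, with the number of tested members in parentheses. Left, the median interaction log2 fold change; right, the percentage of members with an unadjusted p below 0.05, positive values to the right and negative values to the left. Dashed lines give all 16514 genes tested. Immediate early genes have the largest positive percentage (37.3%) and erythrocyte markers the largest negative one (33.3%). The lists were chosen with earlier results of these data known.

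Gene lists are described by their counts and medians beside those of all genes tested. Some genes, ANKRD1 among them, belong to several lists, so the lists are not independent of each other. They were chosen with earlier results of these data known, so a share above that of all genes is no independent support. Counts of members called for injury stand against 14% of all genes higher and 13.3% lower in mutants, and 11.8% higher and 11.9% lower in wild type. A difference between the 2 genotypes in such a count was not tested. In every list, shares of members at an unadjusted p below 0.05 stand against 3.97% of all genes positive and 3.34% negative. Immediate early genes, transcription factors and phosphatases induced within minutes to hours by many stimuli, had a median interaction of 0.70, against 0.01 over all genes. Of 51 tested members (57 matched), 19 had a positive interaction at an unadjusted p below 0.05 (37.3%, against 3.97% of all genes), 1 had a negative one (1.96%, against 3.34%) and 0 were called. In all, 45 members had a positive value, where 51.6% of all genes had one. The mean level of the list was 2.7 to 3.28 log2 CPM in injured mutants, 2.06 to 2.30 in non-injured mutants, 2.76 to 3.17 in injured wild types and 2.42 to 2.89 in non-injured wild types. The injured groups overlapped and non-injured mutants lay below all other fish. With injury 26 of the 51 members rose and 1 fell in mutants (14% and 13.3% of all genes), and 12 rose and 6 fell in wild type (11.8% and 11.9% of all genes). Without injury 7 members were lower in mutants and 0 higher, where 2.83% of all genes were called in either direction.

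FOSB (ENSDARG00000055751), a subunit of the AP-1 transcription factor, had 0.934, 1.52, 0.692 and 0.954 CPM in injured mutants and 0.216, 0.321, 0.264 and 0.256 CPM in non-injured mutants. It had 0.472, 0.466, 0.662 and 0.381 CPM in injured wild types and 1.13, 0.732, 1.55 and 0.454 CPM in non-injured wild types. It rose with injury in mutants by 1.93 (adjusted p = 0.00306), and its wild-type change was -0.96 (adjusted p = 0.0803). The interaction was 2.89 (SE 0.56, adjusted p = 0.102). DUSP4 (ENSDARG00000044688), a phosphatase of MAP kinases, had 2.12 to 3.01 CPM in injured mutants and 0.323 to 0.687 CPM in non-injured mutants, against 1.02 to 1.48 CPM in injured wild types and 0.653 to 0.929 CPM in non-injured wild types, with an interaction of 1.67 (SE 0.36, adjusted p = 0.17). For the transcription factor KLF11 (ENSDARG00000013794) it was 1.73 (SE 0.38, adjusted p = 0.191). Over all alternative settings the list's median stayed between 0.55 and 0.82.

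Yap and Tead are the transcriptional pair that responds to stretch and stiffness of the cell's surroundings, and Ankrd1 is a known target of theirs in mammals. Of 33 tested members of this pathway (34 matched, both ANKRD1 genes among them), 7 had a positive interaction at an unadjusted p below 0.05 (21.2%), 0 had a negative one, and the median was 0.21. The median was 0.07 with library size as the only scaling and 0.09 without non-injured wild type 2. The median genotype gap of these members was -0.25 among non-injured fish and -0.01 among injured fish. Their mean level was 2.23 log2 CPM in non-injured mutants and 2.49 in non-injured wild types, and 3.08 and 2.98 in the injured groups. The secreted matricellular protein gene CCN1 (ENSDARG00000023062) had 61.3, 66.9, 23.4 and 50.8 CPM in injured mutants and 11.2, 10.5, 7.13 and 14.5 CPM in non-injured mutants, against 21.8, 18.2, 20.6 and 11.9 CPM in injured wild types and 9.49, 16, 38.3 and 9.8 CPM in non-injured wild types. Injured mutants were above injured wild types in all 4 fish, while 1 non-injured wild type, fish 3, lay among the injured mutants. The interaction was 2.25 (SE 0.60, adjusted p = 0.353). Its relative CCN2 (ENSDARG00000042934) had an interaction of 1.85 (SE 0.47, adjusted p = 0.317), and the Yap inhibitor AMOTL2 (ENSDARG00000061923) one of 0.89 (SE 0.24, adjusted p = 0.352). CCN1 and CCN2 rose with injury in mutants, by 2.22 and 1.70 (adjusted p = 0.00201 and 0.00202), and their wild-type changes were -0.02 and -0.14. AMOTL2 fell in wild type (-0.82, adjusted p = 0.00293), and its change in mutants was 0.07.

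Contractile genes of fast and slow fibres had medians of opposite sign. Among 39 fast fibre genes 7 had a positive interaction at an unadjusted p below 0.05 (17.9%), 0 a negative one, and the median was 0.33 (0.22 to 0.49 over the alternatives). The 4 members of smallest p were the fast myosin heavy chain genes myhz1.1, myhz2, myhz1.2 and myhz1.3, which are near-identical to each other and had whole estimated counts in at most 1 library. Each is therefore uncertain alone, and their sum, chosen after their values were seen and not tested, is less affected by reads passed between them. The sum was 13000, 12100, 7330 and 12600 CPM in injured mutants and 237, 185, 121 and 233 CPM in non-injured mutants. It was 4580, 4190, 4110 and 4120 CPM in injured wild types and 318, 384, 177 and 254 CPM in non-injured wild types. All 4 injured mutants were above all 4 injured wild types, and the non-injured groups overlapped.

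Of the single genes, myhz1.1 rose with injury in mutants by 7.66 (SE 0.47) and in wild type by 4.97 (SE 0.42), with an interaction of 2.69 (SE 0.51, adjusted p = 0.0958). After injury its level was 936 to 2410 CPM in mutants and 194 to 580 CPM in wild types, a gap of 2.36 (adjusted p = 0.00396). The most abundant of them, myhz2, had 4730 to 7820 CPM in injured mutants and 2990 to 3400 CPM in injured wild types, a gap of 1.13 (adjusted p = 0.0221), and an interaction of 1.41 (SE 0.32, adjusted p = 0.206). For myhz1.2 the interaction was 2.19 (SE 0.51, adjusted p = 0.216), and for myhz1.3 it was 2.83 (SE 0.69, adjusted p = 0.27). Over the whole list 3 of 39 members had a called gap among injured fish, all higher in mutants, where 1.48% of all genes had a called gap. The median gap of the 39 members was -0.05 among injured fish and -0.42 among non-injured fish, where 0 were called. The list's mean level was 10.12 log2 CPM in injured mutants and 9.91 in injured wild types. Without injury it was 8.26 in mutants and 8.66 in wild types.

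The slow fibre list ran the other way, with 6 of 25 tested members (29 matched) at an unadjusted p below 0.05 and a negative value (24%), 0 with a positive one, and a median of -0.42 (-0.59 to -0.27 over the alternatives). The slow troponin I gene tnni1c had 44.8, 58, 46.6 and 42.2 CPM in injured mutants and 235, 184, 277 and 231 CPM in non-injured mutants, against 79.2, 66.3, 72.8 and 78.1 CPM in injured wild types and 206, 159, 90.6 and 229 CPM in non-injured wild types. All injured mutants were below all injured wild types, and the non-injured groups overlapped. It fell with injury in both genotypes, by a log2 of -2.27 in mutants and -1.21 in wild type, and the interaction of -1.07 (SE 0.32, adjusted p = 0.402) was not called. The myosin light chain gene myl13 (-0.78), the slow tropomyosin gene tpm3 (ENSDARG00000005162; -0.61) and the myosin heavy chain gene myh7bb (-0.98) had adjusted p of 0.602 to 0.625. The first pair fell in both genotypes, and myh7bb fell in mutants (-1.17, adjusted p = 0.00552). With injury 13 of the 25 slow fibre genes fell in mutants (13.3% of all genes) and 9 in wild type (11.9% of all genes). The list's mean level did not separate the injured groups, at 4.56 to 5.10 log2 CPM in mutants and 4.91 to 5.04 in wild types. Without injury it was 5.41 to 5.83 in mutants and 5.12 to 5.83 in wild types.

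**Figure D4:**
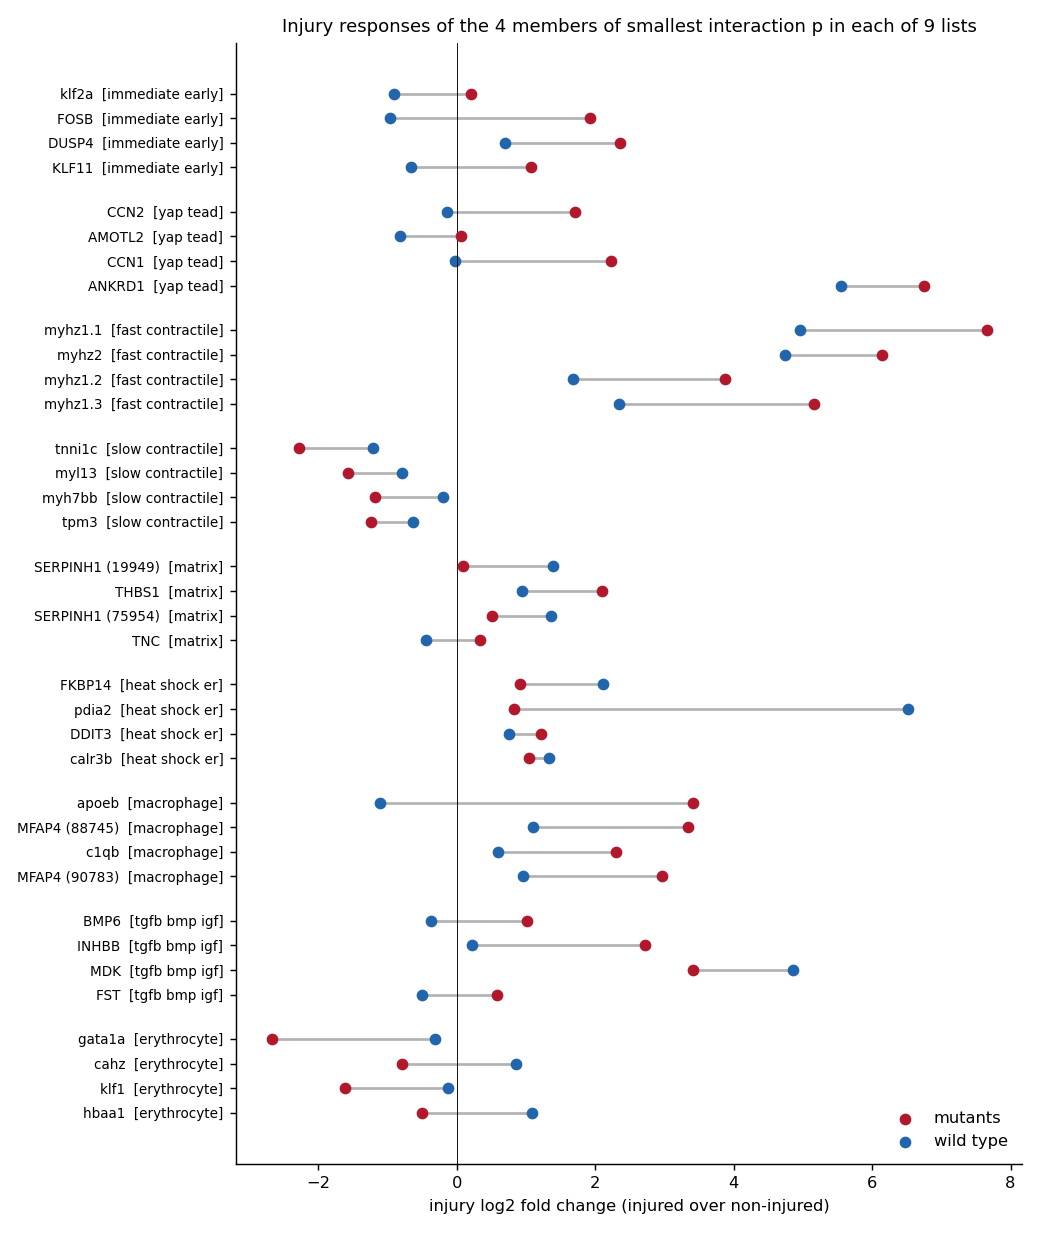
Injury log2 fold change in mutants (red) and wild type (blue) for the 4 members of smallest interaction p in each of 9 lists, named in brackets; the length of each line is the size of the interaction. SERPINH1 and MFAP4 labels carry the last digits of the gene ID. Other labels give the symbol alone, which several IDs can share. SERPINH1 (ENSDARG00000019949) is the 1 gene shown here whose interaction was called.

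Most matrix genes rose in both genotypes: 35 of 59 tested members (62 matched) were higher after injury in mutants and 42 in wild type. Their median interaction was 0.00. At an unadjusted p below 0.05, 3 were positive (5.08%, against 3.97% of all genes) and 3 negative (5.08%, against 3.34%). SERPINH1 (ENSDARG00000019949) was the called one. THBS1 (ENSDARG00000103775), thrombospondin 1, had 248, 169, 166 and 209 CPM in injured mutants and 35.6, 48.5, 51.5 and 49 CPM in non-injured mutants, against 203, 172, 177 and 156 CPM in injured wild types and 83.4, 84, 129 and 72.2 CPM in non-injured wild types. The injured groups overlapped, the non-injured mutants lay below the non-injured wild types, and the interaction was 1.16 (SE 0.27, adjusted p = 0.219). For tenascin C, TNC (ENSDARG00000078362), it was 0.79 (SE 0.30, adjusted p = 0.586). Among 53 chaperones and folding enzymes the median was 0.01. At an unadjusted p below 0.05, 0 had a positive interaction and 2 a negative one (3.77%, near the 3.34% of all genes). One was FKBP14 (ENSDARG00000040695), a prolyl isomerase that acts on procollagen, at 3.41 to 4.11 CPM in injured mutants and 1.39 to 2.49 CPM in non-injured mutants, and 6.38 to 7.89 CPM in injured wild types and 0.929 to 2.44 CPM in non-injured wild types. All injured mutants lay below all injured wild types, and its interaction was -1.19 (SE 0.33, adjusted p = 0.353).

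Of the Tgf-beta, myostatin and Igf signalling genes, 58 were tested (68 matched), 9 had a positive (15.5%) and 4 a negative interaction (6.9%) at an unadjusted p below 0.05, and the median was 0.25 (0.12 to 0.27 over the alternatives). The secreted ligand genes BMP6 (ENSDARG00000015686; 1.39, SE 0.39, adjusted p = 0.353) and INHBB (2.50, SE 0.71, adjusted p = 0.374), which encodes an activin subunit, had lower levels in non-injured mutants than in non-injured wild types, with gaps of -1.46 (adjusted p = 0.014) and -2.37 (adjusted p = 0.0331). The growth factor gene MDK (ENSDARG00000036036) had 77.7, 70.6, 105 and 56.5 CPM in injured mutants and 217, 212, 162 and 81.5 CPM in injured wild types, with 4.69 to 8.51 CPM in non-injured mutants and 3.63 to 7.68 CPM in non-injured wild types. It rose in both genotypes, and its interaction was -1.44 (SE 0.43, adjusted p = 0.419). FST, follistatin, which binds activins and myostatin, was at 7.84 to 13 CPM in injured mutants and 2.91 to 6.03 CPM in injured wild types, a gap of 1.14 (adjusted p = 0.0246), and its interaction was 1.08 (SE 0.33, adjusted p = 0.438).

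Most proliferation genes rose in both genotypes. Of 43 DNA replication and mitosis genes (45 matched) 37 were higher after injury in mutants and 33 in wild type, the median interaction was 0.27, and 5 were positive (11.6%) and 0 negative at an unadjusted p below 0.05. The mitotic checkpoint kinase gene bub1 had 1.77 to 2.63 CPM in injured mutants and 0.128 to 0.216 CPM in non-injured mutants, against 1.04 to 1.34 CPM in injured wild types and 0.136 to 0.671 CPM in non-injured wild types, with an interaction of 1.88 (SE 0.51, adjusted p = 0.353). The proliferation marker mki67 had 11.4, 14.8, 17.9 and 19.4 CPM in injured mutants and 10.5, 9, 8.46 and 9.13 CPM in injured wild types (interaction 1.14, SE 0.49, adjusted p = 0.645). The list's median was 0.07 without non-injured wild type 1 and 0.56 without non-injured mutant 2. Of 30 tested satellite cell, myogenic and fusion genes (31 matched) 9 rose with injury in mutants and 10 in wild type. Their median interaction was 0.05, and 3 were positive (10%) and 2 negative (6.67%) at an unadjusted p below 0.05. MEGF10 (ENSDARG00000017229), a receptor of satellite cells, had 16 to 22.5 CPM in injured mutants and 11.9 to 14.9 CPM in injured wild types, with no overlap, and an interaction of 0.70 (SE 0.19, adjusted p = 0.352). The myogenic factor MYF5 had an interaction of -0.69 (SE 0.23, adjusted p = 0.48), with 3.83 to 5.81 CPM in non-injured mutants and 2.26 to 2.91 CPM in non-injured wild types (gap 0.81, adjusted p = 0.0189).

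Macrophage and monocyte markers had a median interaction of 0.60. Of 45 tested members (53 matched), 40 had a positive value, where 51.6% of all genes had one. At an unadjusted p below 0.05, 8 were positive (17.8%) and 0 negative, and 0 were called. Without non-injured wild type 3 the median was 0.18. With injury 34 of the 45 members rose in mutants (14% of all genes) and 15 in wild type (11.8% of all genes), and 0 fell in either. The list's mean level was 3.05 to 3.59 log2 CPM in injured mutants and 1.49 to 1.71 in non-injured mutants, against 2.47 to 3.76 in injured wild types and 1.45 to 3.29 in non-injured wild types. Injured groups overlapped, and among non-injured wild types fish 3 lay at 3.29 and the other 3 at 1.45 to 2.34. The lipoprotein gene apoeb, abundant in phagocytes, had 235, 256, 238 and 218 CPM in injured mutants and 25.4, 27.4, 19.5 and 16.6 CPM in non-injured mutants, against 259, 101, 47 and 47.4 CPM in injured wild types and 69.6, 46.8, 833 and 28.6 CPM in non-injured wild types. Its interaction was 4.52 (SE 1.29, adjusted p = 0.387). The complement gene c1qb had an interaction of 1.70 (SE 0.52, adjusted p = 0.442), and a pair of MFAP4 genes with partly shared reads had 2.23 and 2.01 (adjusted p = 0.419 and 0.455). Lysosomal genes had a median of 0.16 (0.03 without non-injured wild type 3). Of 59 tested members, 7 were positive (11.9%) and 1 negative (1.69%) at an unadjusted p below 0.05. The lysosomal galactosidase gene GLB1 (ENSDARG00000036415) led with 1.60 (SE 0.35, adjusted p = 0.178).

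**Figure D5:**
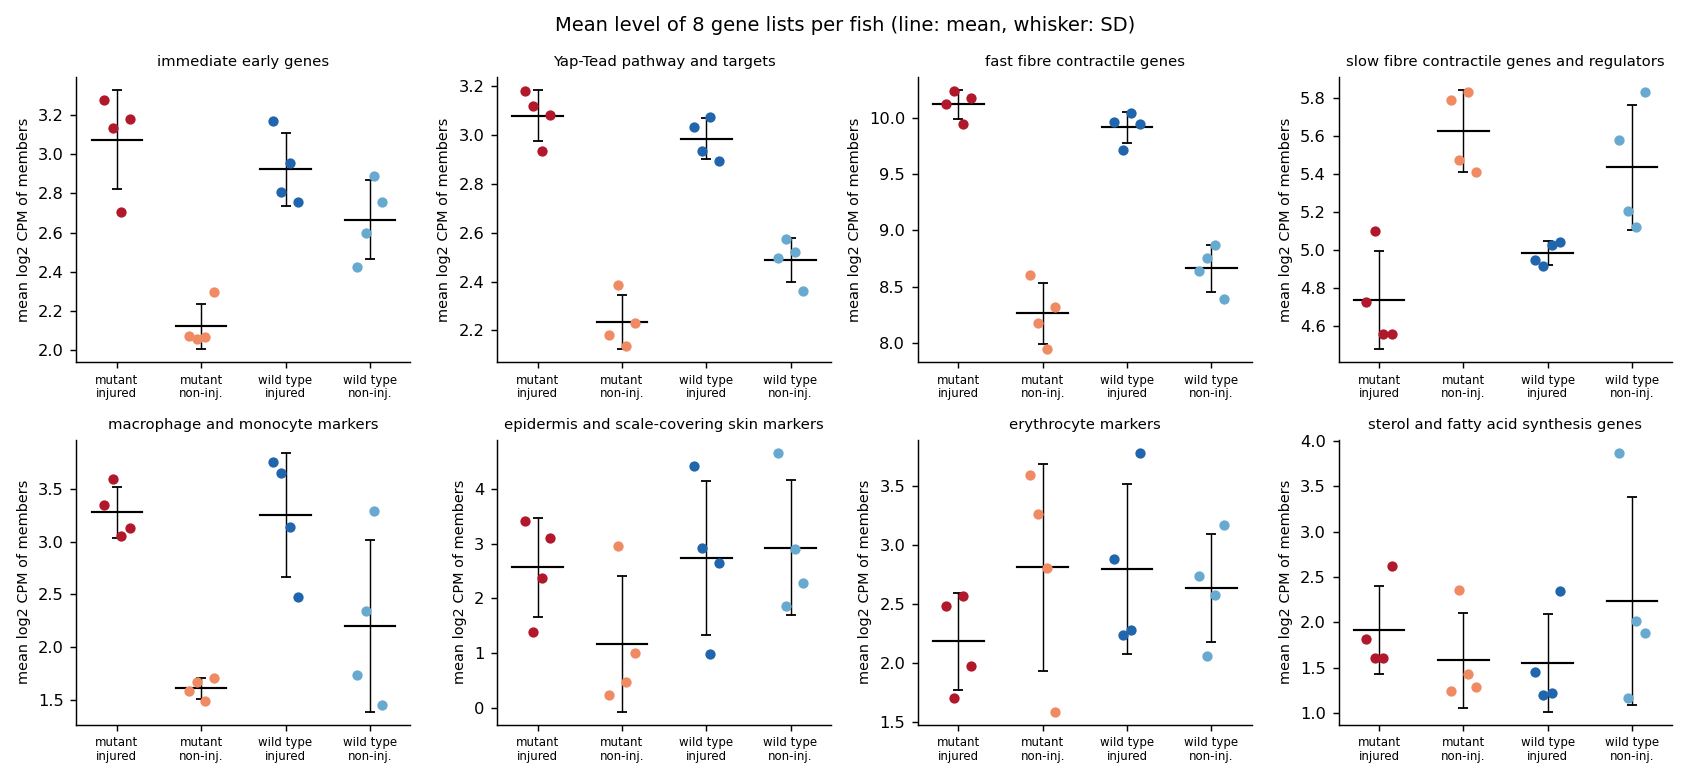
Mean log2 CPM of the members of 8 gene lists, 1 point per fish, with injured and non-injured mutants left of injured and non-injured wild types. Lines are means and whiskers 1 SD of 4 fish. Non-injured mutants lie lowest for immediate early genes, injured mutants and wild types overlap for Yap-Tead genes, and epidermis markers spread widely within every group.

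Calcium handling and excitation genes held rcan1a as their 1 called member. Of 54 tested (57 matched) 3 were positive (5.56%, against 3.97% of all genes) and 0 negative at an unadjusted p below 0.05, with a median of 0.10. CHRNG (ENSDARG00000086647), the embryonic subunit of the muscle acetylcholine receptor, rose by 3.78 in mutants and 2.32 in wild type, and its interaction was 1.46 (SE 0.46, adjusted p = 0.448). The gene ppp3ca, a catalytic subunit of calcineurin, had 0.276 to 0.603 CPM in injured mutants and 0.431 to 3.26 CPM in non-injured mutants, against 0.465 to 0.835 CPM in injured wild types and 0.712 to 2.44 CPM in non-injured wild types, with an interaction of -1.54 (SE 0.74, adjusted p = 0.684). Stretch and titin-associated genes, 17 tested of 22 matched, had a median of 0.22 (0.07 without non-injured wild type 4). At an unadjusted p below 0.05, 2 were positive (11.8%), of which ANKRD1 (ENSDARG00000075263) was one, and 1 was negative (5.88%). The other positive member, the small heat shock protein gene CRYAB (ENSDARG00000101380), had 0.0494 to 1.46 CPM in injured mutants, 0 to 3.07 CPM in non-injured mutants, 0 to 0.0423 CPM in injured wild types and 0 to 5.16 CPM in non-injured wild types.

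Metabolic genes showed few interactions. Of 65 tested subunits of the respiratory chain and ATP synthase (67 matched) 55 fell in mutants and 56 in wild type. The median interaction was 0.08. At an unadjusted p below 0.05, 0 were positive and 2 negative (3.08%, against 3.34% of all genes), cox6b1 and cox4i1l. The gene cox4i1l, for another cytochrome c oxidase subunit, had 9.58 to 12.6 CPM in injured mutants and 45.7 to 64.8 CPM in non-injured mutants, against 13.7 to 23.3 CPM in injured wild types and 28.5 to 49.1 CPM in non-injured wild types (interaction -1.08, SE 0.28, adjusted p = 0.352). The list of TCA cycle and fatty acid oxidation genes (55 tested, 59 matched) had a median of 0.10. At an unadjusted p below 0.05, 3 of its members were positive (5.45%, against 3.97% of all genes) and 1 negative (1.82%, against 3.34%). UCP2 (ENSDARG00000043154), a mitochondrial carrier, rose in mutants by 1.59 (adjusted p = 0.000452), its wild-type change was 0.08, and its interaction was 1.51 (SE 0.35, adjusted p = 0.227). Among 49 glycolysis and glycogen genes (52 matched) 0 had an unadjusted p below 0.05, with a median of 0.06. The 74 cytosolic ribosomal protein genes had 0 with an unadjusted p below 0.05 as well. Of them 73 had a positive value, where 51.6% of all genes had one. Their median was 0.23 with a range from -0.22 to 0.47. That median was 0.42 without non-injured mutant 4 and 0.09 with the macrophage level as a covariate. Members measured in the same fish are not independent of each other. The list's mean level was 8.31 to 8.72 log2 CPM in injured mutants and 8.18 to 8.95 in non-injured mutants. It was 8.51 to 8.90 in injured wild types and 8.50 to 9.14 in non-injured wild types, and all groups overlapped. The interaction of that level was 0.23, with an SE of 0.26 from the spread between fish.

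Skin, blood and lipid lists had the medians farthest from 0, and their levels varied widely between fish of 1 group. Epidermis markers had a median of 1.11. Of 32 tested members (39 matched), 1 was positive at an unadjusted p below 0.05 (3.12%, against 3.97% of all genes). It was the keratin gene krt15 (1.09, SE 0.42, adjusted p = 0.602). The list's level was 1.38 to 3.42 log2 CPM in injured mutants, 0.24 to 2.96 in non-injured mutants, 0.99 to 4.41 in injured wild types and 1.85 to 4.66 in non-injured wild types. The median was 2.90 without non-injured mutant 2 and 0.21 without non-injured wild type 1. Sterol and fatty acid synthesis genes had a median of 1.07, and 3 of 39 tested (44 matched) were positive at an unadjusted p below 0.05 (7.69%). Their median was 0.10 without non-injured wild type 1. That fish had a level of 3.87 log2 CPM, against 1.17 to 2.02 in the other 3 fish of its group. Erythrocyte markers had a median of -1.17, and of -0.64 without injured wild type 4. Of 12 tested (14 matched), 4 were negative at an unadjusted p below 0.05 (33.3%). The erythroid transcription factor gata1a had 0.28 to 0.599 CPM in injured mutants and 0.895 to 4.8 CPM in non-injured mutants, against 0.646 to 2.16 CPM in injured wild types and 1.28 to 2 CPM in non-injured wild types, with an interaction of -2.36 (SE 0.65, adjusted p = 0.353). The part of skin, blood and immune cell content in the interactions of other genes was not tested. Covariates were fitted for epidermis and macrophage level only, with none for blood. In mutants the macrophage level rose with injury without overlap, so that covariate takes up the injury effect as well and cannot separate it from cell content. With epidermis or macrophage level as a covariate 5 genes were called in each fit, and both sets lay within the 10.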

How the data were processed

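Skeletal muscle RNA of 16 adult zebrafish was sequenced, 1 fish per library, and the poly A libraries were stranded per the labels. The authors deposited 1 table of RSEM estimated counts for 32520 genes. The submitters' processing notes name fastp (0.23.4), STAR (2.7.0, 2.7.10) and RSEM (1.3.3), with no role or order. Genome build, annotation and strand setting: not given in the sources used here. RSEM divides reads that fit several genes between them, and 94.29% of values were whole numbers as deposited. Symbols came from a table that named 29201 of the genes.

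Estimated counts were rounded to whole numbers, filtered with filterByExpr (minimum count 10, minimum total 15) and scaled by TMM. edgeR 4.0.16 (R 4.3.3) fitted a robust quasi-likelihood model with 1 mean per group to all 16 libraries, and the interaction was a contrast of the 4 means. A call was an adjusted p under 0.05 (Benjamini-Hochberg over 16514 genes, two-sided), and each SE is the log2 fold change divided by the square root of F. CPM values were scaled by TMM. After the main fit, the same fitting code was run on counts simulated from it. In these only some genes of the injured mutants were changed and no other group differed, which is simpler than the real design. Depth per library was 17324482 to 25231102 estimated counts.

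The members described and the 34 gene lists (1303 of 1358 symbols matched) were chosen with earlier results of these data known. Named genes were both ANKRD1 genes and ANKRD2, called genes with a symbol and a mean log2 CPM of at least 1, the genes of smallest p that fill each direction up to 10 within the same limits, genes called for injury in opposite directions, and up to 4 members of smallest p per list. Alternatives were other scalings (RLE, library size), no filter or a minimum count of 50, DESeq2 1.42.0, limma-voom 3.58.1, non-robust estimates, a replicate block, epidermis or macrophage level as a covariate, thinning to the smallest library and leaving out each library. Leaving out non-injured wild type 2 and non-injured mutant 4 together was chosen after seeing the data.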

Additional observations from a re-analysis of the deposited data

Results flagged for a closer look

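The 10 called interactions are by construction differences between the injury effects of the 2 genotypes, tested by the interaction term itself. They were 3.59 for CCDC92, 1.75 for rcan1a, 1.42 for TRHDE, -1.31 for SERPINH1 (ENSDARG00000019949), -2.20 for DGLUCY, -2.71 for si:ch211-207c6.2, -4.23 for ENSDARG00000100540, -5.23 for znf1094, -5.75 for si:dkey-28g23.6 and -8.64 for si:dkey-201g16.6.

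Dixon's test for a single fish far from the other 3 of its group was made for 264 groups of values and marked 16 of them (6.06%). Chance marks about 1 in 20 where values vary. The 264 include groups with 0 CPM in all fish, such as non-injured mutants for si:ch211-69i3.2. These cannot be marked, so the shares compare only roughly. Injured mutant 3 was the low fish of its group in 3 of the 16 marked groups. It had 6.77 CPM of CCDC92 (12.8 to 13.6 in the other 3 fish), 90 CPM of ANKRD1 (ENSDARG00000075263; 141 to 148) and 7330 CPM of the 4 summed myhz genes (12100 to 13000). Among non-injured wild types, fish 3 had 0.0516 CPM of si:dkey-201g16.6, where the others had 0. That mark follows from 1 count among zeros. The same fish had 0.155 CPM of si:ch211-69i3.2 (1.01 to 1.16 in the others). Non-injured wild type 4 had 13.6 CPM of EFNB2 (16 to 16.4 in the others) and 6.95 log2 CPM of TCA cycle and fatty acid oxidation genes (6.43 to 6.51).

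Of the injured wild types, fish 1 had 4580 CPM of the summed myhz genes (4110 to 4190 in the others) and 1.38 log2 CPM of gut, liver and pancreas markers (0.729 to 0.805). Injured wild type 2 had 83.1 CPM of SERPINH1 (63 to 65.8 in the others) and 3.39 log2 CPM of satellite cell, myogenic and fusion genes (3.49 to 3.5). Injured wild type 3 had 1.8 CPM of si:dkey-28g23.6 (2.73 to 2.91 in the others). Injured mutant 2 had 2.85 log2 CPM of Tgf-beta, myostatin and Igf signalling genes (2.61 to 2.64 in the others). Of the non-injured mutants, fish 2 had 2.36 log2 CPM of sterol and fatty acid synthesis genes (1.25 to 1.43 in the others). Non-injured mutant 3 had 17.9 CPM of PIM1 (21.9 to 22.1), and non-injured mutant 4 had 2.3 log2 CPM of immediate early genes (2.06 to 2.07).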

How the results depend on the processing

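DGLUCY and CCDC92 were called under all 28 alternatives. The number of called interactions, 10 in the fit reported (3 positive, 7 negative), was 6 with library size as the only scaling (1 positive). It was 5 each with a minimum count of 50, limma-voom, the epidermis covariate, the macrophage covariate and thinning (2 negative each), and 66 with DESeq2 (43 positive, 23 negative). The DESeq2 calls held all 10 of the fit reported. Positive ones also included klf2a, ADAMTS15, fbxo44.9, col4a6, csrnp1a, PIM1, FOSB, DUSP4, KLF11, CCN1, CCN2, THBS1, myhz1.1, myhz1.2, myhz1.3 and myhz2. Negative ones included ucmaa, cox6b1, hmga1b, GFER and USP37. AMOTL2, SNX24 and C9H2orf49 were not called by DESeq2. Leaving out 1 library gave 5 to 13 calls (3 to 7 positive, 2 to 6 negative), with 5 or 6 calls without any of injured mutant 1, non-injured mutants 1, 2 and 3, injured wild types 2, 3 and 4 and non-injured wild types 3 and 4, and 13 without injured mutant 3. Without non-injured wild type 2 and non-injured mutant 4 there were 11 calls (7 positive, 4 negative), of which 7 were among the 10. With replicate number as a block there were 4 calls (1 negative). After each gene's group mean was subtracted from its log2 CPM, same-numbered fish of different groups correlated at -0.27 to 0.34. By these deviations a fish matched its own number best in 14 of 48 cases, with 4 fish to choose from each time. The labels do not say whether the numbers pair the fish, and these values cannot decide it. The fit reported uses no pairing.

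With the macrophage covariate 905 genes were called for injury in mutants and 1907 in wild type. Leaving out 1 library gave 3524 to 4613 calls in mutants and 2608 to 4205 in wild type, the 2608 without injured wild type 2. The interaction of ANKRD1 (ENSDARG00000076192) ran from -0.25 to 1.70 over leaving out 1 library. Scaled by library size alone, the median injury change over all genes was 0.26 in mutants (-0.02 with TMM) and 0.34 in wild type (-0.03 with TMM). The cause of these changes was not tested. Depth limits the scarce genes, such as si:dkey-201g16.6 with 1 count in non-injured wild types, and a median SE of 0.35 leaves small differences between responses undetectable.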

Other observations

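The remaining gene lists had 0 called members. Members given below as positive or negative with a percentage had an unadjusted p below 0.05. These shares stand against 3.97% of all genes with a positive and 3.34% with a negative interaction at that p. Glucocorticoid-responsive and Foxo catabolic genes had a median interaction of 0.35 over 40 tested members. A positive value was found in 33 of them, where 51.6% of all genes had one. At that p 4 were positive (10%) and 2 negative (5%). The median ran from 0.26 to 0.51 over leaving out 1 library. By mean level of the list, non-injured mutant 1 (3.94 log2 CPM) lay among the non-injured wild types (3.69 to 4.11). Non-injured mutants 2, 3 and 4 had 3.24 to 3.40, and the injured groups overlapped. The glutamine synthetase gene GLUL (ENSDARG00000100003) had 11.1 to 16.2 CPM in injured mutants and 5.81 to 9.14 CPM in non-injured mutants, against 11 to 24.4 CPM in injured wild types and 8.53 to 39.6 CPM in non-injured wild types, and its interaction was 1.3 (SE 0.54, adjusted p = 0.643). Nerve and Schwann cell markers had a median of -0.43, with 5 of 34 tested members negative (14.7%) and 0 positive. With injury 19 of the 34 fell in mutants (13.3% of all genes) and 7 in wild type (11.9% of all genes), a contrast that was not tested. The synaptic vesicle gene SYT1 (ENSDARG00000030614) had 1.66 to 2.21 CPM in injured mutants and 4.29 to 6.68 CPM in non-injured mutants, against 2.07 to 2.98 CPM in injured wild types and 2.26 to 4.33 CPM in non-injured wild types (interaction -1.06, SE 0.33, adjusted p = 0.431). The neural crest and Schwann cell factor SOX10 (ENSDARG00000077467) had an interaction of -0.51 (SE 0.18, adjusted p = 0.504).

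Interferon response genes had a median of -0.28, with 2 of 27 negative (7.41%), one of them irf9, at -1.06 (SE 0.28, adjusted p = 0.352), and the median was 0.00 without injured wild type 1. Antigen presentation genes had a median of -0.17 (0.05 without injured wild type 1) with 0 of 24 at that p in either direction, as had lymphocyte markers (-0.04, and 0.39 without injured wild type 1; 15 tested), neutrophil markers (0.29, and -0.45 without non-injured wild type 3; 11 tested) and pigment cell markers (0.26, 16 tested). Cytokine and Jak-Stat genes had a median of 0.13 with 1 of 33 positive and 1 negative (3.03% each). Circadian clock genes had a median of -0.04, with 1 of 42 positive (2.38%) and 3 negative (7.14%), the clock repressor gene PER1 (ENSDARG00000012499) among them at -0.40 (SE 0.18, adjusted p = 0.664). Proteasome and autophagy genes had a median of 0.10 with 1 of 55 in each direction (1.82% each), and endothelial and mural cell markers one of 0.07 with 1 of 41 in each direction (2.44% each). Adipocyte markers had a median of -0.01 with 1 of 14 negative (7.14%), the lipase gene LPL (-1.57, SE 0.64, adjusted p = 0.643). Bone, cartilage and scale markers had a median of 0.44 with 1 of 23 positive (4.35%), which became -0.08 without injured mutant 2. Gut, liver and pancreas markers, of which 8 of 34 were tested, had a median of 0.13 with 2 positive (25%) and 1 negative (12.5%), and -1.62 with no filter on low counts.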
